A study of Mus musculus with 6 samples.

Results

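The mouse genes Palld, Filip1 and Trp63 are described here as 3 intervals of the mm9 genome in which ubiquitylated histone H2B (H2Bub) was mapped in muscle cells before and after differentiation. They were picked because a few 10 kb windows inside them had a large excess of myotube over myoblast reads in these same libraries. That excess is therefore a description of the choice and is given no test. The Palld interval runs from 63990000 to 64381000 on chromosome 8, Filip1 from 79662000 to 79861000 on chromosome 9, and Trp63 from 25683000 to 25893000 on chromosome 16. Together they make up 80 of the 250807 windows of 10 kb that held reads: 39 in Palld, 20 in Filip1 and 21 in Trp63. Their ends are rounded, and which gene lies where was not checked against an mm9 annotation, which was not used here. The Trp63 interval is close to the place of Trp63 in RefSeq on the later GRCm38.p6 build, and whether mm9 has the gene at the same coordinates was not settled, so the Trp63 values are those of the stated interval. On average over the myotube libraries, Trp63, most of Filip1 and the right-hand part of Palld had more H2Bub reads than in myoblasts. The rest of Palld had fewer when reads were scaled by windows without peaks. Scaled by total reads, the middle of Palld was about level between the groups. MT replicate 2 lay at the myoblast level in Filip1 and in the right-hand part of Palld.

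C2C12 is a mouse myoblast line that stops dividing and fuses into myotubes when serum is lowered. Myoblasts (MB, 3 libraries) were harvested while growing in 10% fetal bovine serum, at 40% confluency. Myotubes (MT, 3 libraries) came from confluent cells kept for 96 h in 2% horse serum, with the medium renewed once. The labels name the cell type C2C12 and the source C1C12, and all 6 libraries came from chromatin cut with micrococcal nuclease and precipitated with one H2Bub antibody (clone 56), each under its own lot number. The labels do not say whether replicates were separate cultures, so their spread may be technical, and the cell type was not checked against marker genes.

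H2Bub is placed on nucleosomes inside genes while RNA polymerase II transcribes them, by the ligase pair Rnf20 and Rnf40, and it is known as a mark of transcribed gene bodies. Palld encodes palladin, a scaffold of actin bundles found in stress fibres and in the Z-discs of muscle, and the gene makes several isoforms from alternative starts. Filip1 encodes a protein that binds filamin, an actin crosslinker. Trp63 encodes p63, a transcription factor of the p53 family best known from epithelial stem cells, likewise made from more than a single start.

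Densities below are reads per kb divided by the mean of the 208597 windows of 10 kb that held no peak and lay away from the 3 intervals, so that 1 is the level of the peak-free genome. The median peak-free window was at 0.937 to 1.03 in the 6 libraries. Libraries held 8767810 to 15903500 reads, of which peak-free windows took 40.3% to 48.4% in myoblasts and 74.4% to 78.7% in myotubes. MT replicate 2 stood apart from the other myotube libraries, with 1.05% of its reads in MT peaks against 1.56% and 1.60% in MT replicates 1 and 3, and 6.65% in MB peaks against 9.45% and 9.23%. Values without this library stand beside the results below. Each library had an antibody lot to itself, so lot and sample cannot be told apart. No input library was among the 6, so densities are not corrected for how the nuclease cut the chromatin. In a culture, more H2Bub per cell and more cells that carry it cannot be told apart.

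**Figure D1:**
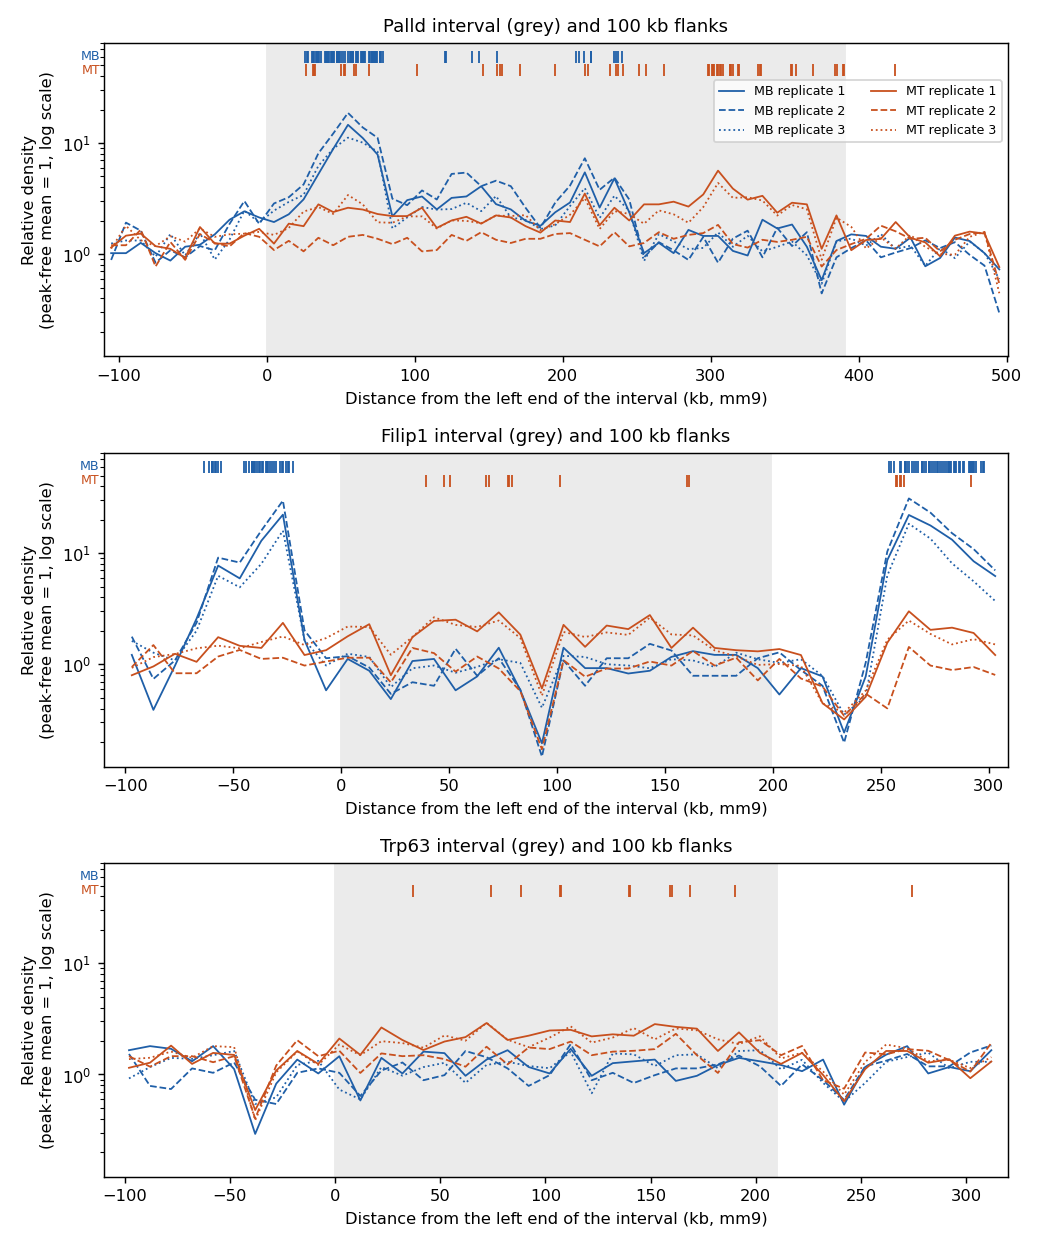
Relative H2Bub density (log scale, peak-free mean = 1) in 10 kb windows along each interval (grey) and 100 kb on either side, for 3 myoblast (blue) and 3 myotube (orange) libraries; ticks at the top mark peaks of the MB and MT lists. In Palld the myoblast lines stand highest in the window from 64040001 to 64050000, and the lines of MT replicates 1 and 3 stand above all myoblast lines over the right-hand 141 kb.

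Palld was split into stretches with opposite differences. The myoblast peaks in the interval gave the boundaries, a choice made after the data were seen: the longest run of windows with MB peaks (64010001 to 64070000), the windows between it and the last MB peak (64070001 to 64240000), and the 141 kb on the right without an MB peak (64240001 to 64381000). RefSeq places Palld on the minus strand in the GRCm38.p6 build, so the right-hand end is the side of its first start, and the stretches are called 3′, middle and 5′ accordingly.

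The 3′ stretch of Palld was a dense H2Bub domain in myoblasts and was only slightly above the middle stretch in myotubes. Its density was 8.46, 11.4 and 8.03 in MB replicates 1 to 3 and 2.40, 1.33 and 2.59 in MT replicates 1 to 3. Every myoblast library was above every myotube library, with means of 9.28 ± 1.81 and 2.11 ± 0.680 (SD, n = 3) and a log2 ratio of MT to MB of -2.14. The ratio was -1.38 with reads scaled by library totals and -1.17 over reads outside every peak. The stretch held 55 MB peaks covering 57.2% of its bases and 10 MT peaks covering 5.24%. Over chromosomes 1 to 19 and X the MB list covered 3.92% and the MT list 0.299%. The stretch was cut as the longest run of windows with MB peaks, so its high myoblast density follows in part from that choice. The lowest ratio of the whole interval was in the window from 64040001 to 64050000. There the libraries had 14.6, 18.7 and 11.2 in myoblasts and 2.62, 1.43 and 3.41 in myotubes.

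The middle stretch of Palld carried a moderate level in both groups, lower in myotubes. Its density was 3.02, 3.92 and 2.50 in the myoblast libraries and 2.14, 1.34 and 2.12 in the myotube libraries. The groups did not overlap, with means of 3.15 ± 0.720 and 1.87 ± 0.453 (SD, n = 3) and a log2 ratio of -0.75. The stretch held 14 MB peaks and 13 MT peaks, or 82.35 and 76.47 per Mb. Over chromosomes 1 to 19 and X the MB list had 72.5 per Mb and the MT list 9.755. Similar counts from the 2 lists are therefore not read as similar marking. Scaling by total reads in place of peak-free reads took the log2 ratio of this stretch to 0.02. That of the whole Palld interval went from -0.73 to 0.04. Both were then about level between the groups, so their lower myotube density depends on the scaling.

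The 5′ stretch of Palld was at background in myoblasts and above it in MT replicates 1 and 3. Its density was 1.33, 1.17 and 1.17 in the myoblast libraries and 3.00, 1.33 and 2.55 in the myotube libraries. MT replicate 2 lay level with MB replicate 1, so the groups overlapped. The means were 1.23 ± 0.0946 and 2.30 ± 0.865 (SD, n = 3), a log2 ratio of 0.91 with all libraries, which ranged from 0.66 without MT replicate 1 to 1.18 without MT replicate 2 when a library was left out. With total reads it was 1.65. The stretch held 30 MT peaks covering 8.05% of its bases, or 213 per Mb against 9.76 per Mb over chromosomes 1 to 19 and X. It held 0 MB peaks because it was cut to lie beyond the last of them. The low myoblast density there follows in part from that choice. Both lists rest on these libraries, with 1 list per group and no replicate of either.

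The excess in the 5′ stretch of Palld was broad, with a crest inside it. The crest was the window from 64290001 to 64300000, with 8 MT peaks and a density of 1.46, 0.838 and 1.57 in myoblasts and 5.65, 1.83 and 4.37 in myotubes. In that window every myotube library was above every myoblast library. The next window, 64300001 to 64310000, had 1.07, 1.38 and 1.17 against 3.89, 1.23 and 3.21, and the window from 64240001 to 64250000 had 1.02, 0.937 and 0.867 against 2.81, 1.26 and 1.88. The widest MT peak of the interval, 64297034 to 64297870, lay in the crest, 83.1 kb from the right-hand end. It held 1, 0 and 2 reads in the myoblast libraries and 17, 10 and 27 in the myotube libraries, so the reads behind a single peak were few.

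The spacing of the alternative starts of Palld can be set beside these boundaries. RefSeq lists 3 starts for Palld in GRCm38.p6, the second 142.6 kb and the third 311.6 kb downstream of the first. In the mm9 files, the MB peak nearest to the right-hand end of the interval was 150.3 kb from it, and the dense run of MB peaks began 312.1 kb from it. The distances come from different builds and no position was converted, so they are set side by side as a description. The promoter windows of the 3 starts, 250 bases before to 50 after each, are shown because it is their spacing that is compared. They are RefSeq sequence of GRCm38.p6, minus strand, at chr8:61902658-61902957, chr8:61760040-61760339 and chr8:61591090-61591389, with capitals at matches to the motifs named below.
Palld start 1: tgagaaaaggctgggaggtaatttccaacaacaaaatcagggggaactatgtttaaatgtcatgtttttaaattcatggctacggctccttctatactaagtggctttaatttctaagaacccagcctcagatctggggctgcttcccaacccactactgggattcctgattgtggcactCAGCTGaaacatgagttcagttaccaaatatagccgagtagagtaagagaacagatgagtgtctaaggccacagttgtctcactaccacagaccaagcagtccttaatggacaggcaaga
Palld start 2: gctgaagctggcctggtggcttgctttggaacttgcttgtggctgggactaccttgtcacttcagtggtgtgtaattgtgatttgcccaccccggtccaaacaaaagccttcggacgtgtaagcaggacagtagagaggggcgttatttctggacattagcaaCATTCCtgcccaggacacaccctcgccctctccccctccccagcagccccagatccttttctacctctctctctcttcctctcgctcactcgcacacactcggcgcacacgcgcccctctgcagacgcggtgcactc
Palld start 3: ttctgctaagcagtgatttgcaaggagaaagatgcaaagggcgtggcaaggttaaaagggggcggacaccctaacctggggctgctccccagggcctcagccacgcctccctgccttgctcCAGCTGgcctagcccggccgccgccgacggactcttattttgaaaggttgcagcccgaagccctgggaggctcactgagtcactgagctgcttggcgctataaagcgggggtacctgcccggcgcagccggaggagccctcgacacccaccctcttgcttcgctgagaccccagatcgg

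Motifs bound by factors active in muscle were looked for on both strands of these windows. They were CAGCTG, the E-box bound by MyoD and myogenin, CATTCC, the M-CAT element bound by TEAD factors, and the CArG box (SRF) and the MEF2 site, each by its usual pattern. Palld starts 1 and 3 each held 1 CAGCTG and start 2 held 1 CATTCC, and none of the 3 held a CArG box or a MEF2 site. Of all 32851 promoter windows of 300 bases in the table, 16.3% held CAGCTG, 14.7% CATTCC, 1.63% a CArG box and 3.19% a MEF2 site. A match is a run of letters, with no measured binding behind it.

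Filip1 lay between 2 dense myoblast domains and had no peak of its own in myoblasts. Its density was 0.941, 0.919 and 0.995 in the myoblast libraries and 1.88, 0.950 and 1.81 in the myotube libraries. MT replicate 2 lay within the myoblast range, so the groups overlapped. The means were 0.952 ± 0.0393 and 1.55 ± 0.516 (SD, n = 3), a log2 ratio of 0.70 with all libraries, which ranged from 0.54 without MT replicate 1 to 0.95 without MT replicate 2 when a library was left out. The interval held 0 MB peaks and 11 MT peaks, or 55.3 per Mb, between 79701392 and 79823803.

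The flanks of Filip1 differed the other way. The 100 kb on the left had 36 MB peaks and a density of 5.72 ± 1.40 in myoblasts against 1.32 ± 0.177 in myotubes (SD, n = 3). The 100 kb on the right had 49 MB peaks and 7.49 ± 1.96 against 1.16 ± 0.329 (SD, n = 3). The left and right flanks thus held 360 and 490 MB peaks per Mb, beside 72.5 over chromosomes 1 to 19 and X. In the order of RefSeq genes on GRCm38.p6, Tmem30a and Cox7a2 are the nearest protein-coding genes on the left and Senp6 the nearest on the right, but the domains were not assigned to genes. MT replicate 2 was at 1.12 on the left and 0.794 on the right, the lowest of the libraries in both flanks.

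Within Filip1 the excess covered the left and central windows and faded toward the right-hand end. The windows with the largest ratios were adjacent. In the window from 79700001 to 79710000 the libraries had 1.12, 0.641 and 0.975 in myoblasts and 2.46, 1.26 and 2.65 in myotubes, without overlap. The window from 79720001 to 79730000 had 0.778, 0.789 and 0.948 against 1.98, 1.18 and 2.17, and that from 79710001 to 79720000 had 0.584, 1.38 and 0.840 against 2.52, 0.860 and 2.26. At the right-hand end, the window from 79850001 to 79860000 had the lowest ratio of the interval, a log2 ratio of -0.07. There the densities were 0.924, 1.13 and 1.11 in myoblasts and 1.31, 0.716 and 0.987 in myotubes.

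RefSeq places Filip1 on the minus strand in GRCm38.p6 with 4 starts, the others 35.0, 50.8 and 181.9 kb downstream of the first. The right-most and widest MT peak of the interval, 79823273 to 79823803 in mm9, ended 37.2 kb from its right-hand end. The window that held it had a log2 ratio of 0.73, the one to its left 0.23, and those to its right 0.33, 0.16 and -0.07. The distances again come from different builds. The promoter windows of the first pair of starts are shown because start 2 held the motif matches of the gene, with start 1 for comparison. They lie at chr9:80012802-80013101 and chr9:79977833-79978132 of GRCm38.p6, minus strand.
Filip1 start 1: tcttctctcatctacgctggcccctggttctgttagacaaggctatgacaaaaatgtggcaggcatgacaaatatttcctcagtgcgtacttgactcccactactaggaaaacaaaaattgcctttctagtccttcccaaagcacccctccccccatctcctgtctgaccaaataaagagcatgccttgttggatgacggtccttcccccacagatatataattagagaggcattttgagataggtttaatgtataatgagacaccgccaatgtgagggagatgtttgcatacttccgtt
Filip1 start 2: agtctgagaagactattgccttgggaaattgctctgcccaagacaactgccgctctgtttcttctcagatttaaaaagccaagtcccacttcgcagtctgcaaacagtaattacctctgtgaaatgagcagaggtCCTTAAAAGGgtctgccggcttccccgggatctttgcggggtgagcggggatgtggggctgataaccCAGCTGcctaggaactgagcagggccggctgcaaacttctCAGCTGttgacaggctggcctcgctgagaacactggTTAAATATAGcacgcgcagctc
Start 2 held 2 matches to CAGCTG, 1 CArG box and 1 MEF2 site, and start 1 held no match to any of the 4 motifs. The windows of starts 3 and 4 held none either.

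Trp63 was higher in every myotube library than in every myoblast library. Its density was 1.26, 1.12 and 1.22 in the myoblast libraries and 2.22, 1.60 and 2.13 in the myotube libraries, with MT replicate 2 again the lowest of its group. The means were 1.20 ± 0.0698 and 1.98 ± 0.337 (SD, n = 3), a log2 ratio of 0.72 with all libraries, which ranged from 0.63 without MT replicate 1 to 0.86 without MT replicate 2 when a library was left out. The interval held 0 MB peaks and 11 MT peaks, or 52.4 per Mb. At its left end the 50 kb inside were, relative to the 50 kb outside, at 1.15 ± 0.235 in myoblasts and 1.40 ± 0.284 in myotubes (SD, n = 3), with overlap, and at its right end at 1.31 ± 0.199 and 1.71 ± 0.340, also with overlap.

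The excess over Trp63 ran the length of the interval and was larger in some windows than in others. All 21 windows had a ratio above 1, with log2 ratios of 0.38 to 1.15. The largest were in the windows from 25800001 to 25810000 (0.972, 0.887 and 0.677 in myoblasts against 2.20, 1.49 and 1.94 in myotubes) and from 25690001 to 25700000 (0.584, 0.641 and 0.596 against 1.50, 1.03 and 1.49). Neither held a peak of either list. The window from 25840001 to 25850000, with 2 MT peaks, had 0.875, 1.13 and 1.49 against 2.68, 2.32 and 2.59, and was the window in which MT replicate 2 came nearest to the other myotube libraries among those named in this interval. The smallest ratio was at 25760001 to 25770000, with 1.65, 1.13 and 1.30 against 2.04, 1.23 and 2.05.

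**Figure D2:**
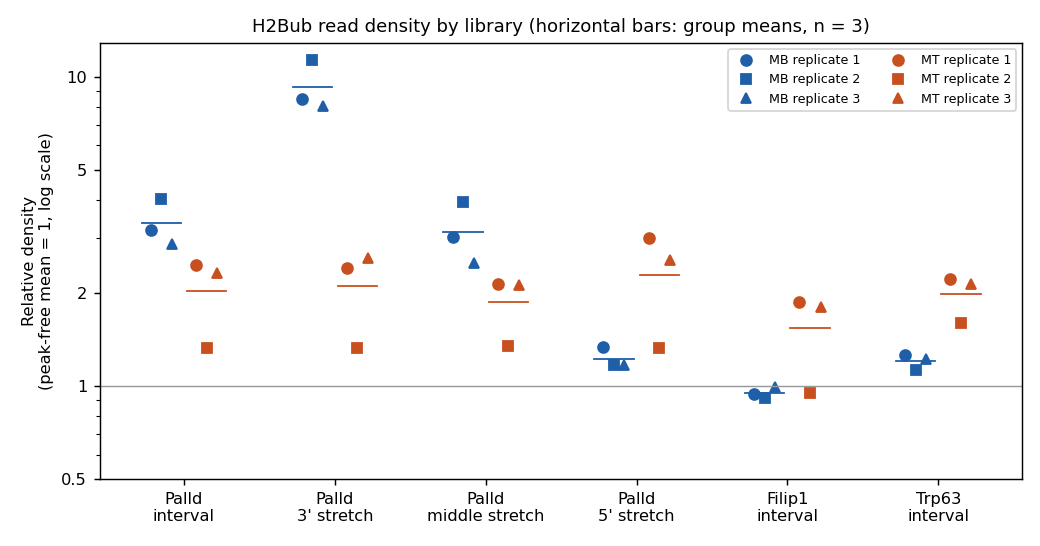
Relative H2Bub density (log scale, peak-free mean = 1) of the Palld interval, its 3 stretches, and the Filip1 and Trp63 intervals, with 1 symbol per library and bars at the group means (n = 3). Myotubes are lower in the Palld 3′ and middle stretches and higher in Trp63, and MT replicate 2 sits near the myoblast level in the Palld 5′ stretch and in Filip1; with total-read scaling the whole Palld interval and its middle stretch have log2 ratios of 0.04 and 0.02.

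Densities set against each library's own flanks need no scaling between libraries. Over the flank windows within about 100 kb that held no peak, the Palld 5′ stretch was at 1.07, 0.938 and 0.959 times its flanks in myoblasts and at 2.30, 1.03 and 1.94 times in myotubes. Filip1 was at 1.28, 0.981 and 1.03 times in myoblasts and 2.20, 1.15 and 1.95 times in myotubes, and Trp63 at 1.02, 1.03 and 1.06 times and 1.78, 1.17 and 1.60 times. In all 3 the ratio in MT replicates 1 and 3 was well above that in each myoblast library, while MT replicate 2 was within the myoblast range in the Palld 5′ stretch and in Filip1. With all flank windows counted, the myoblast ratio of Filip1 was 0.152 ± 0.0451 and the myotube ratio 1.22 ± 0.196 (SD, n = 3), a contrast set largely by the myoblast domains beside it.

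The flanks of Palld and Trp63 differed less between the groups than the Palld 5′ stretch and Trp63 did. The right flank of Palld had 1.15 ± 0.0444 in myoblasts and 1.37 ± 0.0739 in myotubes (SD, n = 3), a log2 ratio of 0.25. The left and right flanks of Trp63 had log2 ratios of 0.26 and 0.16. In these 3 flanks every myotube library was above every myoblast library, MT replicate 2 included, and the median log2 ratio of peak-free windows over the genome was 0.10. The left flank of Palld, next to the myoblast domain, had 1.48 ± 0.0584 and 1.37 ± 0.104, with overlap. Single flank windows were as high as windows inside. The log2 ratio was 0.725 at 64470001 to 64480000 beside Palld and 0.743 at 25650001 to 25660000 beside Trp63.

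The higher level lay both in the MT peaks and between them. Outside all peaks the log2 ratio of MT to MB was 0.78 in the Palld 5′ stretch, 0.65 in Filip1 and 0.71 in Trp63. Inside the MT peaks it was 1.65, 2.27 and 1.13. The peaks were called on these libraries, so a larger ratio inside them follows in part from that choice. In MT replicate 2 the density inside MT peaks was 2.55 in the Palld 5′ stretch, 2.96 in Filip1 and 4.02 in Trp63, above the highest myoblast library in each (1.84, 1.37 and 2.31). That order inside the MT peaks follows in part from the same choice. Outside peaks MT replicate 2 had 1.23, 0.918 and 1.56, above every myoblast library in Trp63 alone of the 3.

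**Figure D3:**
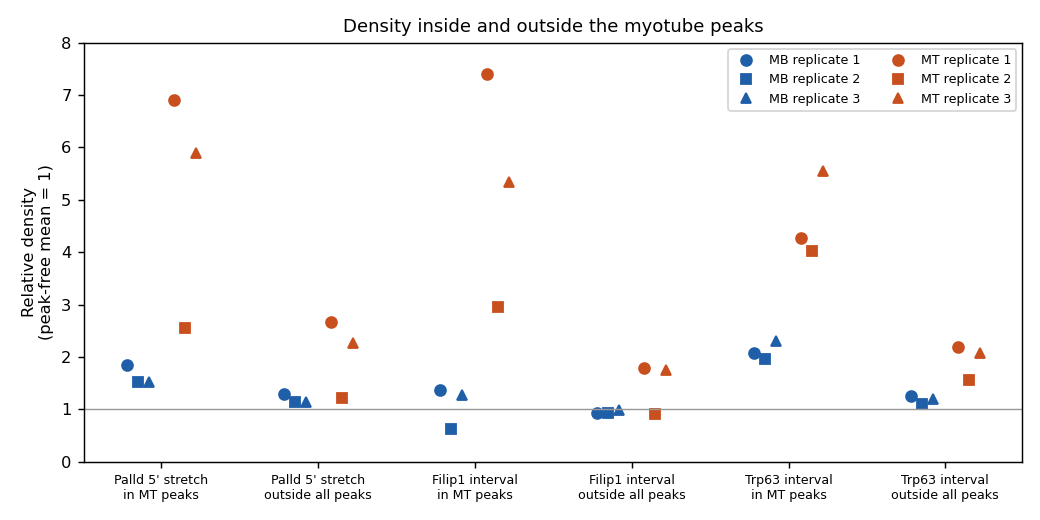
Relative H2Bub density (linear scale, peak-free mean = 1) inside MT peaks and outside all peaks, for the Palld 5′ stretch, Filip1 and Trp63, with 1 symbol per library. Inside MT peaks all 3 myotube libraries are above the myoblast libraries, which follows in part from calling the peaks on these libraries. Outside peaks MT replicate 2 is at 1.23, 0.918 and 1.56.

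Across the genome, windows called higher in myotubes were uncommon on the peak-free scale. Of 235912 windows tested with limma voom, 3119 were called higher in myotubes (1.32%) and 45361 lower (19.2%), at a Benjamini-Hochberg adjusted p under 0.05. All 80 windows of the intervals passed the floor on low counts. Called higher were 10 of 39 windows in Palld, all in the 5′ stretch of 14 windows, 7 of 20 in Filip1 and 13 of 21 in Trp63. Called lower were 20 windows in Palld and 0 in the others, and without MB replicate 2 the Palld count was 13, beside 17.2% of all windows. Since the loci were picked on this contrast, nothing is read from their share against the background. Median log2 ratios were 0.87 in the Palld 5′ stretch, 0.73 in Filip1 and 0.76 in Trp63, beside 0.04 over all windows tested. The highest window log2 ratio was 1.62 in Palld, 1.22 in Filip1 and 1.15 in Trp63, beside 2.29 over all windows tested.

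The counts called higher moved with the library left out. Without MT replicate 1, 1 window was higher in Palld, 3 in Filip1 and 6 in Trp63, beside 0.682% of all windows. Without MT replicate 2 the counts were 13, 15 and 15, beside 0.988%. Without MB replicate 3 they were 5 in Palld and 4 in Filip1, beside 1.06%, and without MB replicate 2 the Palld count was 6, beside 0.562%. In each interval the lowest count came without MT replicate 1 and the highest without MT replicate 2. With total reads, 16 windows in Palld, 19 of 19 tested in Filip1 and 21 in Trp63 were higher, and 5 in Palld were lower. On that scale 70.9% of all windows were higher and 13.1% lower, and the median fitted log2 fold change over all windows moved from 0.03 to 0.78. With the replicate number as a block, 11 windows in Filip1 were higher in place of 7, beside 1.64% of all windows.

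In 6 of the 14 windows of the Palld 5′ stretch, 5 of the 20 in Filip1 and 14 of the 21 in Trp63, every myotube library was above every myoblast library. Over all windows tested this held in 10.1%. In the Palld 5′ stretch MT replicates 1 and 3 were above the highest myoblast library in 14 of 14 windows and MT replicate 2 in 6. In Filip1 the counts were 20, 5 and 18 of 20 for MT replicates 1, 2 and 3, and in Trp63 20, 15 and 21 of 21. Over all windows tested the shares were 27.1%, 28.6% and 25.6%, so MT replicate 2 in Filip1 was at no more than the share of the genome. The opposite pattern, every myotube library below every myoblast library, held in 20 windows of Palld and in 21.5% of all windows.

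**Figure D4:**
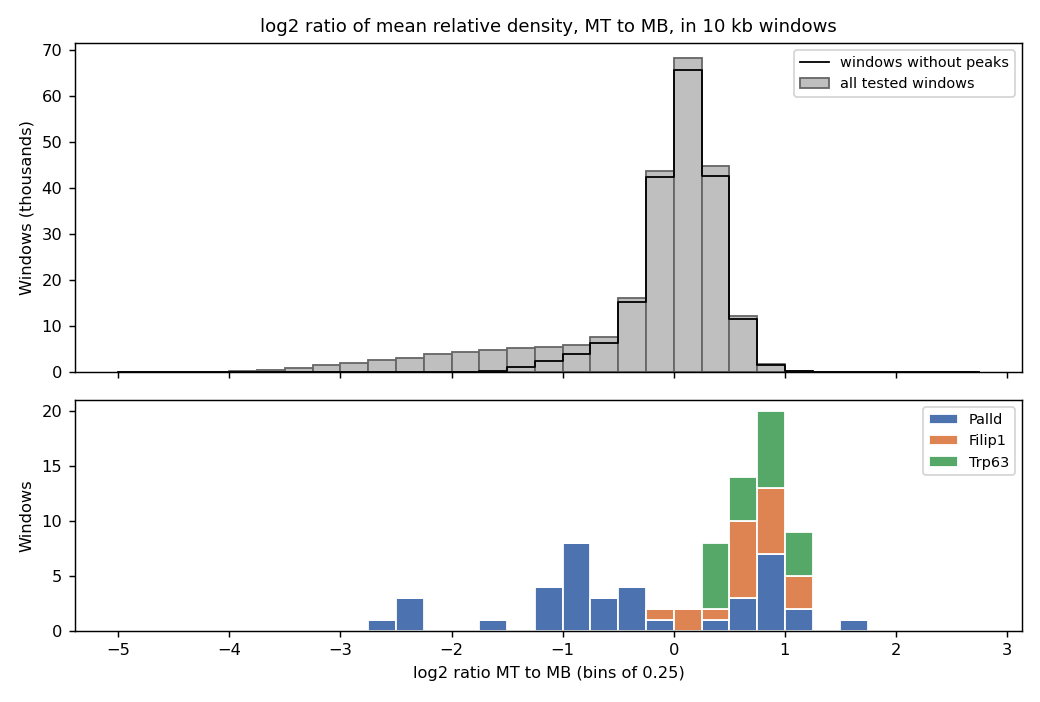
Upper panel, log2 ratios of mean density (MT to MB) in all tested 10 kb windows, with windows without peaks outlined; lower panel, the same for the 80 windows of the 3 intervals. The median over all windows is 0.04, Trp63 windows lie between 0.38 and 1.15, and Palld windows lie on both sides of 0, from -2.58 to 1.62.

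Strand, which the choice of loci did not use, was balanced in both groups. Plus-strand reads made up 50.4% ± 1.09 of Palld reads in myoblasts and 49.96% ± 0.821 in myotubes (SD over 3 libraries), with p = 0.7 by a two-sided exact permutation test. In Filip1 the shares were 48.15% ± 0.363 and 49.65% ± 1.43 (SD, n = 3; exact p = 0.3), and in Trp63 48.2% ± 3.71 and 49.2% ± 0.839 (SD, n = 3; exact p = 0.7). Adjusted over the 3 loci each p was 0.7, and 3 against 3 libraries cannot give a p below 0.1. In Palld, plus-strand positions preceded minus-strand positions most often by 105 bp in both groups, where the genome had 108 bp in myoblasts and 103 bp in myotubes. Trp63 had 100 bp in myotubes. Filip1 in both groups and Trp63 in myoblasts gave 67 to 131 bp from 1.95 to 10.1 pairs per offset, too few to read.

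Some stretches elsewhere differed about as much as parts of the loci. On a fixed grid of 49538 stretches of 50 kb, the 3 largest log2 ratios lay in Palld (64250001 to 64300000, 1.04), Filip1 (79700001 to 79750000, 1.00) and Trp63 (25800001 to 25850000, 0.92), which follows from how the loci were found. Outside the loci the largest was on chromosome 12, 36500001 to 36550000, with a log2 ratio of 0.84 at densities of only 0.0967 ± 0.0181 in myoblasts and 0.173 ± 0.0282 in myotubes (SD, n = 3). Next came chromosome X, 131850001 to 131900000 (0.76), with 0.155 ± 0.0204 in myotubes (SD, n = 3). A stretch of chromosome 13 (83450001 to 83500000, 0.76), another of chromosome 12 (91300001 to 91350000, 0.75) and one of chromosome 15 (24100001 to 24150000, 0.74) had 0.705 to 0.809 in myoblasts and 1.18 to 1.37 in myotubes on average. Of the 5, only that at 91300001 on chromosome 12 held a peak, 1 of the MT list. In the chromosome 13 stretch MT replicate 2 had 1.43, level with 1.46 in MT replicate 1 and above 1.17 in MT replicate 3, unlike its place in the 3 loci. As a description over 6 libraries that share their group labels, log2 densities of these 5 stretches had Pearson coefficients of 0.25 to 0.56 with the mean of the 3 intervals, and of 0.72 to 0.89 with the mean of the Palld 5′ stretch, Filip1 and Trp63. The stretches and the loci were both picked on the group difference, so positive coefficients follow from that choice and are not read as likeness.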

How the data were processed

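H2Bub chromatin immunoprecipitation reads of 3 MB and 3 MT libraries were used. Per library, the authors deposited mapped reads as chromosome, coordinate and strand, and 1 peak list per group without scores, on build mm9 per the submitters' processing notes. Not given in the sources used here were the aligner, read length, filters, peak caller and pooling. The files held 0 repeated lines. Positions were used as listed.

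Reads were counted here on the 19 autosomes and X, in the intervals and in 10 kb windows, assigned to an interval by their centre. The library size was the number of reads in windows that overlapped no peak of either list and lay outside the intervals and their 100 kb flanks; total reads were the alternative. A window was tested if 3 libraries (2 when a library was left out) reached 10 reads, rescaled to the median library size, and the 6 together reached 15. The voom method of limma 3.58.1 (R 4.3.3) compared the groups, p-values were adjusted by Benjamini-Hochberg over every window with a threshold of 0.05, and the script was tested on simulated data. The loci, stretches and lists were chosen with earlier results of these data known. Named windows were the 3 highest and the lowest ratio in each interval, and named stretches the 5 highest on a 50 kb grid elsewhere; single peaks were named from the widest 2 per list and interval. No pairing by number was assumed. Deviations from group means over windows had correlations of -0.000455, -0.184 and 0.14 in same-numbered libraries, and of -0.244 to 0.207 in the other pairs. Such deviations cancel within a group, so the correlations cannot exclude pairing. Counting ran in Python 3.11.15 with pandas 2.3.3 and NumPy 2.4.6, permutation tests in SciPy 1.17.1, plots in matplotlib 3.10.9. Promoter sequences are from RefSeq (GRCm38.p6); Palld and Filip1 matched, Trp63 did not.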

Additional observations from a re-analysis of the deposited data

How the results depend on the processing

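Directions held for Filip1, Trp63 and the Palld 5′ and 3′ stretches under each alternative tried on them. With total reads the log2 ratio was 0.036 for the Palld interval and 0.015 for its middle stretch. Both changed sign but were about level between the groups. On the same scale it was 1.441 for Filip1 and 1.468 for Trp63. Against 200 kb flanks the log2 ratio of locus over flanks was -0.312 for Palld, where 100 kb flanks gave -0.79, and 2.562 for Filip1, where they gave 3.008; Filip1 over peak-free flank windows, chosen after the data were seen, gave 0.688. Over the genome, 3119 windows called higher became 165787 with total reads, 148617 with total reads and no MT replicate 2 (then 28986 lower, against 45361), 1291 with the median ratio over peak-free windows and 622 with 50 kb windows (13146 lower); 5 kb windows gave 78817 lower. Window size changes the number tested: 1.25% of 49732 windows of 50 kb were higher and 26.4% lower, and 18.7% of 420782 windows of 5 kb were lower, against 1.32% and 19.2%. With 1 library left out, 1342 to 3775 were higher and 40997 to 46055 lower. The replicate block called 3863 windows higher and 46233 lower, with 11 in Palld, 11 in Filip1 (7 without it) and 14 in Trp63. Of the named windows, that at 79850001 in Filip1 was 0.608 with total reads, 0.083 without MT replicate 2 and 0.769 with both (-0.144 on the peak-free scale, and -0.31 to 0.083 with 1 library left out). The windows at 64300001 and 64240001 in Palld and at 79710001 in Filip1 were not called without MT replicate 1 (limma adjusted p of 0.1143, 0.06159 and 0.1756), nor the last without MB replicate 1 (0.09242) or 3 (0.1091). The upper 50% of peaks by width left 42 MB and 25 MT peaks in Palld, 6 MT peaks in Filip1 and 5 in Trp63, fewer by construction. Without MT replicate 2, 3 of the 5 stretches named elsewhere remained among the 5 highest. Where no cause is given, the cause was not tested. Depth limits single peaks, since the 11 MT peaks of Filip1 and of Trp63 held 4 to 94 reads per library in all.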
